A study of Mus musculus with 2 samples.

Results

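CD8 T cells that carried messenger RNA of interferon gamma together with a CC chemokine were examined in cells labelled as T cells from a mouse melanoma model, with and without combined inhibition of MEK and RAF. The cells were chosen by their own transcripts: at least 1 unique molecular identifier (UMI, a counted RNA molecule) of Cd3e, Cd8b1 and Ifng, at least 1 of Ccl3 or Ccl4, and none of Cd4, Foxp3 or C1qa. Cells with UMIs of more than 2 of the 5 genes Gzmc, Gzmd, Gzme, Gzmf and Gzmg, or of more than 2 of the 5 cell cycle genes Mki67, Top2a, Birc5, Cdk1 and Tpx2, were left out. The rule took 682 of 8078 cells of the treated library and 179 of 9312 cells of the untreated library, or 861 of 17390 cells in all. They are called Ifng-chemokine cells below, and the remaining CD8 cells within the same granzyme and cell cycle limits, 3476 treated and 2991 untreated, are called other CD8 cells.

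The tumour model, NILER in the labels, comes from the Nras Q61R mouse melanoma line NIL, which was given ultraviolet exposure to add mutations. The treated group received Trametinib, an inhibitor of the kinases MEK1 and MEK2, and BGB-283, an inhibitor of RAF kinases; the untreated group received no treatment, and both carried the same model and were sampled on day 5. Each group is 1 droplet library of 3' ends, and the sources used here give neither the number of animals nor how the T cells were isolated. Treatment and library therefore cannot be told apart, no test was made, and every interval given is an exact 95% interval that covers counting error only, not the spread between animals.

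Interferon gamma is the cytokine by which activated CD8 T cells signal to tumour cells and macrophages, and it induces antigen presentation genes in cells that carry its receptor. CCL3 and CCL4 are chemokines that recruit T cells and macrophages, XCL1 attracts the dendritic cells that bear XCR1 and cross-present antigen, and LAG-3 is an inhibitory receptor of activated T cells that binds MHC class II. Transcription of these genes follows antigen receptor signals within hours, through calcium and NFAT, through the RAS, MEK and ERK cascade that the drugs target, and through NF-kB, while proteins of the ZFP36 family shorten the life of the cytokine messengers.

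Promoters of 3 of these genes are printed because Ifng and Ccl3 define the cells and Xcl1 was among the genes that differed most between the libraries. They are the 250 bases before the start of each gene, written 5' to 3' on the gene's own strand, from RefSeq on build GRCm38.p6; of Ifng, Ccl3, Xcl1 and Ccl4, all but Ccl4 were matched. Capitals mark the letters GGAAA, the core bound by NFAT, or TTTCC, the same core on the opposite strand; both were searched and no match overlapped another.
Ifng, chr10:118440796-118441045, plus strand: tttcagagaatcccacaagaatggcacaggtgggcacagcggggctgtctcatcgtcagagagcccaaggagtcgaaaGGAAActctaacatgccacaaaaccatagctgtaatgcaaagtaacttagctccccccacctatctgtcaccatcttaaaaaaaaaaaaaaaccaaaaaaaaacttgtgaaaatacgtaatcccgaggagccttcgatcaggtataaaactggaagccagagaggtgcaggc
Ccl3, chr11:83649379-83649628, minus strand: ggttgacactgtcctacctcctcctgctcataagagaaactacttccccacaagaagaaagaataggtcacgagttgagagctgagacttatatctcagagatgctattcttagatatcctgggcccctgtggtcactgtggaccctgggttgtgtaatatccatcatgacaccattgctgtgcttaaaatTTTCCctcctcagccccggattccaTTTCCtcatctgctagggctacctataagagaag
Xcl1, chr1:164935523-164935772, minus strand: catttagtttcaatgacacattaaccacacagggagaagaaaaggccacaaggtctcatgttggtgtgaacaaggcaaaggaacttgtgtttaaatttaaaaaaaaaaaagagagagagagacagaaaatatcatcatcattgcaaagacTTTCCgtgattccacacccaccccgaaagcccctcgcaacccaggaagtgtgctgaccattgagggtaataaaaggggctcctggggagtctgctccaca
The window held 1 match at Ifng, 2 at Ccl3 and 1 at Xcl1. Of the 32851 promoters of the table, 55.6% held at least 1 match and 21.4% held 2 or more, so the letters are common and a match says nothing of binding.

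Ifng-chemokine cells were CD8 T cells by genes that the rule did not use as well. Cd8a, the partner chain of the Cd8b1 product, had a UMI in 97.9% of treated and 97.8% of untreated Ifng-chemokine cells. Levels, in UMIs per 1000000 UMIs summed over those cells (CPM), were 1091 treated and 1325 untreated for Cd3d, and 840 treated and 1149 untreated for Trac, the constant region of the alpha receptor chain. The treated Ifng-chemokine cells held 5033836 UMIs with a median of 6699 per cell, and the untreated ones 2012568 UMIs with a median of 9476. Over whole libraries the medians were closer, at 5987.5 UMIs treated and 6155 untreated, and the libraries shared 35 cell barcodes. More than 3 times the library's median UMIs were found in 9 of the 682 treated and 25 of the 179 untreated Ifng-chemokine cells. UMIs of a marker of another cell type (Cd79a, Lyz2, Itgax, S100a8, Trdc or Ncr1) were present in 82 treated and 42 untreated ones. The part of depth and of mixed droplets in the results was not tested.

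A larger share of treated than of untreated CD8 cells met the rule. It was 15.1% of 4508 treated CD8 cells (14.1 to 16.2%) and 4.88% of 3667 untreated CD8 cells (4.21 to 5.63%), a ratio of 3.10. Without the granzyme and cell cycle limits, the shares with Ifng and Ccl3 or Ccl4 were 16.8% treated (15.7 to 17.9%) and 8.84% untreated (7.94 to 9.80%), a ratio of 1.90. After each cell was thinned to 2000 UMIs and the rule applied again, the shares were 6.75% treated and 2.78% untreated. Within the granzyme and cell cycle limits, Ifng was present in 33.4% of treated and 11.6% of untreated CD8 cells. Among cells with Ifng, Ccl3 or Ccl4 accompanied it in 49.2% of treated cells (46.5 to 51.8%) and 48.6% of untreated cells (43.4 to 53.9%), so that the treated interval lies within the untreated one. At 2000 UMIs per cell these shares were 37.0% treated (32.9 to 41.2%) and 44.8% untreated (36.8 to 53.02%), again with overlapping intervals. Among cells without Ifng the chemokines were present in 22.7% of treated and 13.7% of untreated cells. Within the granzyme and cell cycle limits, the libraries thus differed in the share of CD8 cells with Ifng beyond counting error. The share of these Ifng cells that also held a chemokine was not told apart by the intervals, and it was not computed without the limits.

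**Figure D1:**
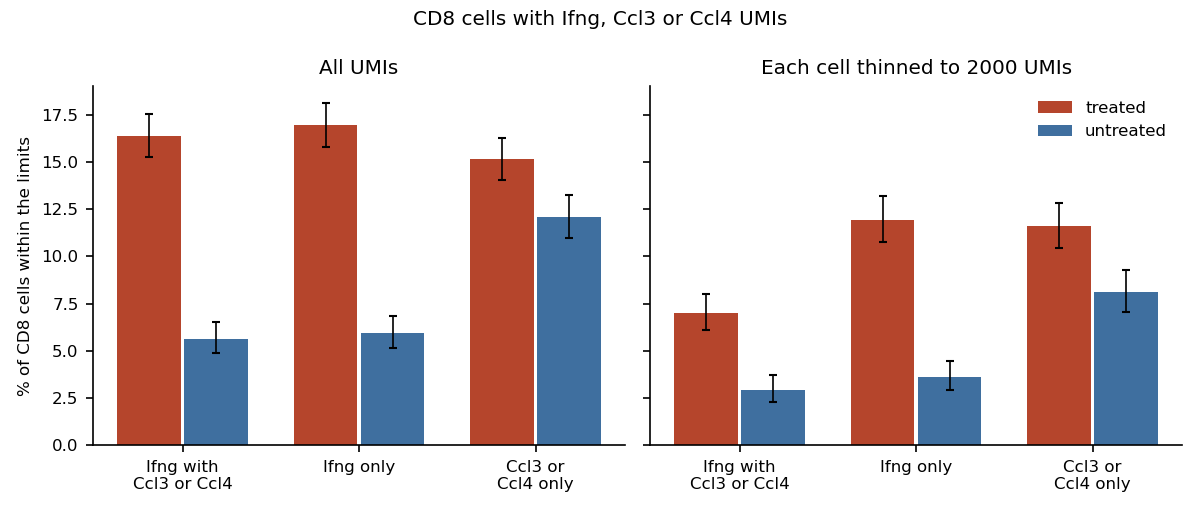
Percent of CD8 cells within the granzyme and cell cycle limits that held Ifng together with Ccl3 or Ccl4, Ifng without them, or Ccl3 or Ccl4 without Ifng, in the treated (red) and untreated (blue) library. Bars are shares, whiskers are exact 95% intervals for counting error, and the right panel repeats the count with every cell thinned to 2000 UMIs; the treated bar is the taller in all 3 classes at both depths.

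The limits of the rule took unequal parts of the libraries. Of the CD8 cells with Ifng and Ccl3 or Ccl4, they removed 76 of 758 treated cells (10.0%) and 145 of 324 untreated cells (44.8%). The cell cycle limit accounted for 37 of these treated and 119 of these untreated cells, and the granzyme limit for 40 treated and 49 untreated cells, with 1 treated and 23 untreated cells past both. Just inside the cell cycle limit, with 2 of the 5 genes, stood 27 treated and 32 untreated cells, and just outside, with 3, stood 3 treated and 26 untreated cells. Just inside the granzyme limit stood 37 treated and 21 untreated cells, and just outside 17 treated and 18 untreated cells. The lowest entry to the rule, 1 UMI of Ifng and 1 of the chemokines, was met by 18.2% of treated and 12.3% of untreated Ifng-chemokine cells.

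As a rough gauge of free RNA in the droplets, Ifng with a chemokine was also counted in other cell types. None of 86 treated B cells (median 2968.5 UMIs) and none of 9 untreated B cells (median 5276 UMIs) held Ifng with a chemokine. The upper interval bounds of these shares were 4.20% treated and 33.6% untreated. In CD4 T cells the share was 1.10% treated and 0.717% untreated, at medians of 5170 UMIs treated and 4615 UMIs untreated. Macrophages carried Ccl3 or Ccl4 in 44.6% of treated and 40.7% of untreated cells, and both Ifng and a chemokine in 1.09% of treated and 0.935% of untreated cells. The CD8 shares lay above the CD4 T cell and macrophage shares in both libraries. Whether the UMIs in CD4 T cells and macrophages were their own was not tested. The B cells were few, and the untreated B cell bound of 33.6% lies above the untreated CD8 share of 4.88%. These counts therefore do not bound the part of free RNA.

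Ifng, Ccl3, Ccl4, Xcl1 and Lag3 had lower summed levels in treated than in untreated Ifng-chemokine cells. The chemokine UMIs of the untreated library sat in few cells. Since Ifng, Ccl3 and Ccl4 chose the cells, their levels are given as a description. Ifng stood at 543 CPM (522 to 563) in treated and 729 CPM (693 to 768) in untreated Ifng-chemokine cells. The median cell held 2 Ifng UMIs treated and 3 untreated, or 3.002 treated and 2.58 untreated per 10000 UMIs of the cell, so that by median the treated cells were slightly the higher. Ccl4 stood at 646 CPM (624 to 669) treated and 2543 CPM (2473 to 2613) untreated, 3.93-fold lower in treated cells, while its median was 2 UMIs in both libraries. The tenth of cells with most Ccl4 held 54.7% of all Ccl4 UMIs in treated and 87.3% in untreated cells. Ccl3 stood at 240 CPM treated and 1007 CPM untreated, 4.19-fold lower in treated cells, with a median of 0 UMIs treated and 1 untreated. A single treated cell reached at most 45 Ifng, 94 Ccl3 and 124 Ccl4 UMIs, against 243, 373 and 872 UMIs in 1 untreated cell of 20115 UMIs that was the highest for all 3 genes.

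Xcl1 differed further between the libraries. It stood at 40.9 CPM treated and 341 CPM untreated, 8.34-fold lower in treated cells (7.13 to 9.79), and had a UMI in 7.92% of treated and 16.8% of untreated Ifng-chemokine cells. Another untreated cell, of 3694 UMIs, held 205 Xcl1 UMIs, or 29.8% of the untreated total, and also the most Il2 (34 UMIs) and Tnf (7 UMIs). With the highest cell of each library left out, gene by gene, Ifng was 1.15-fold, Ccl3 3.73-fold, Ccl4 3.42-fold and Xcl1 7.22-fold lower in treated cells. Lag3 was spread over cells more evenly, with a UMI in 76.8% of treated and 77.1% of untreated Ifng-chemokine cells. Its level was 316 CPM treated and 524 CPM untreated, 1.66-fold lower in treated cells (1.53 to 1.80), and its median 2.42 treated and 4.35 untreated per 10000 UMIs. At 2000 UMIs per cell, Lag3 was detected in 43.9% of treated and 52.5% of untreated cells. Its log2 ratio of treated over untreated was -0.73, and 0.086 when the rule was read as Ifng or Ccl3 or Ccl4, any of the 3 being enough.

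**Figure D2:**
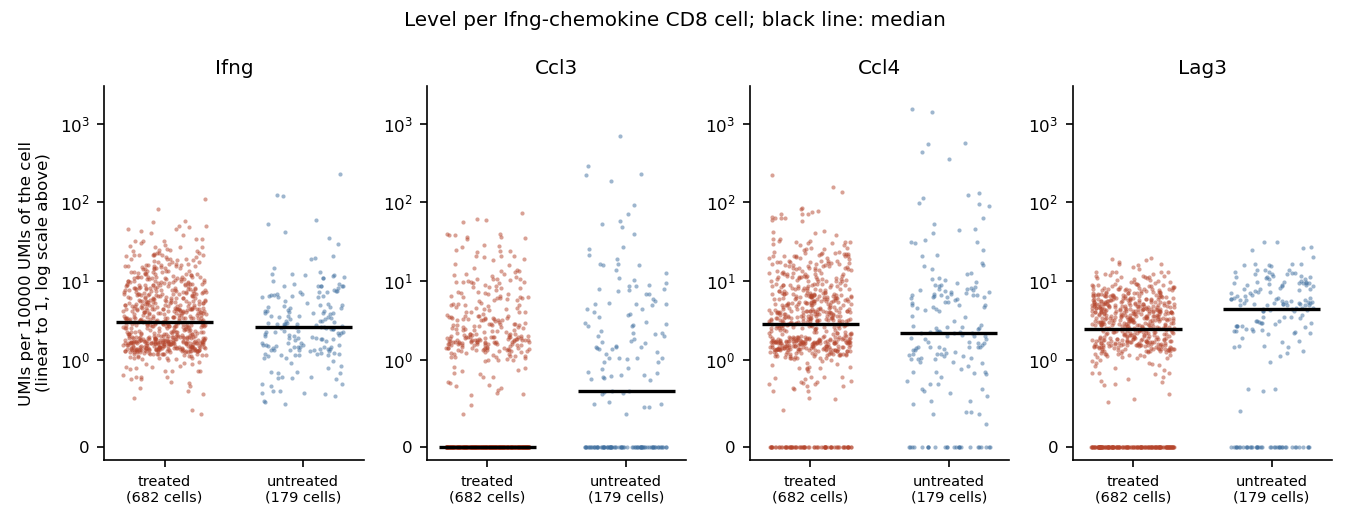
Level of Ifng, Ccl3, Ccl4 and Lag3 in each of the 682 treated (red) and 179 untreated (blue) Ifng-chemokine cells, in UMIs per 10000 UMIs of the cell on an axis that is linear to 1 and logarithmic above. Each dot is 1 cell and the black line is the median; the highest untreated cells stand far above the highest treated cells for Ccl3 and Ccl4, while the medians of Ifng and Ccl4 lie close together.

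Ccl3 and Ccl4, neighbouring chemokine genes, were more often seen together in untreated cells. Both were present in 29.3% of treated (25.9 to 32.9%) and 41.9% of untreated (34.6 to 49.5%) Ifng-chemokine cells, Ccl4 without Ccl3 in 60.0% treated and 44.1% untreated, and Ccl3 without Ccl4 in the remaining 73 treated and 25 untreated cells. The median depth of cells with both was 6765.5 UMIs treated and 11745 untreated, against 6606 UMIs treated and 8403 untreated in cells with Ccl4 alone, so depth moved with this class in the untreated library. In treated cells with both chemokines Ifng was at 750 CPM (707 to 795), against 470 CPM (446 to 496) in treated cells with Ccl4 alone. In untreated cells the same classes stood further apart, at 1220 CPM (1151 to 1292) with both and 295 CPM (257 to 336) with Ccl4 alone. Xcl1 followed, with 67.9 CPM in treated cells with both chemokines and 33.4 CPM in those with Ccl4 alone, and with 669 and 32.9 CPM in the same classes of untreated cells.

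Within each library the Ifng-chemokine cells were ordered by Ifng per 10000 UMIs and divided into 3 classes of like size. From the lowest over the middle to the highest class, treated cells held Ccl4 at 391, 587 and 1055 CPM, and untreated cells at 258, 442 and 8187 CPM. Egr1, an early factor induced by ERK, went with Ifng in treated cells at 218, 279 and 377 CPM, and so did Nr4a1, a factor induced by receptor signals, at 209, 290 and 407 CPM. Nfkbid, an NF-kB cofactor, stood at 66.9, 92.1 and 163 CPM in the same treated classes. In untreated cells these genes were also highest in the highest class, Egr1 at 14.9, 23.3 and 65.5 CPM, Nr4a1 at 34.9, 38.8 and 115 CPM and Nfkbid at 27.4, 43.4 and 88.5 CPM. Gzmb, the cytotoxic granzyme, ran the other way in treated cells, at 439, 388 and 265 CPM, and had no single order in untreated cells, at 1393, 996 and 1961 CPM. Prf1, the pore-forming perforin, stood at 109, 90.9 and 87.5 CPM in treated cells and climbed in untreated cells, at 504, 729 and 1221 CPM. These orders are descriptions, since median depth also differed between the classes: 7356.5, 6452 and 6111 UMIs treated, and 11768.5, 9836.5 and 8222 UMIs untreated.

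Across the transcriptome, 5494 genes had at least 20 CPM and 50 UMIs in the Ifng-chemokine cells of a library. Of these, 30.6% were at least 1.5-fold higher and 19.2% at least 1.5-fold lower in treated cells, so a difference of that size was common, and the median log2 ratio of all genes was 0.10. The genes highest in treated cells were led by transcription factors that antigen receptor and cyclic AMP signals induce. Nr4a3, an orphan nuclear receptor of stimulated T cells, stood at 699 CPM (676 to 722) treated and 59.6 CPM (49.4 to 71.3) untreated, 11.7-fold higher in treated cells (9.77 to 14.2). Fosl2, an AP-1 subunit, stood at 722 CPM treated and 80.0 CPM untreated, 9.03-fold higher. Egr1 stood at 284 CPM treated and 31.8 CPM untreated, 8.92-fold higher. Crem, a cyclic AMP-responsive factor, stood at 863 CPM treated and 116 CPM untreated, 7.42-fold higher (6.51 to 8.50).

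The same end of the ranking held genes of other functions. Hexim1, an inhibitor of the elongation factor P-TEFb, was at 198 CPM treated and 23.9 CPM untreated, and Scd2, a fatty acid desaturase, at 66.9 CPM treated and 5.96 CPM untreated. Lncpint, a long non-coding RNA, was at 97.1 CPM treated and 8.45 CPM untreated, and Jmy, an actin regulator and p53 cofactor, at 81.6 CPM treated and 7.45 CPM untreated. Rab43 stood at 70.3 CPM treated and 3.48 CPM untreated, and Zc3hav1l at 51.1 CPM treated and 2.98 CPM untreated. Fam83d had 1 UMI in the untreated cells, so that its ratio of 70.8 (12.5 to 2811) is poorly bounded.

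At the low end stood effector and interferon-induced genes, beside genes that T cells hardly make. Prf1 was at 96.7 CPM (88.3 to 106) treated and 778 CPM (740 to 817) untreated, 8.04-fold lower in treated cells (7.26 to 8.92). Ly6a, which encodes the activation antigen Sca-1 and is induced by interferon, was at 140 CPM treated and 1050 CPM untreated, 7.52-fold lower (6.90 to 8.20). Gzmc, a gene whose number of partners the rule limits, was at 23.6 CPM treated and 308 CPM untreated. Pclaf, a replication factor, was at 6.56 CPM treated and 58.6 CPM untreated, beside the 5 cell cycle genes of the rule, which 72.0% of treated and 44.7% of untreated cells lacked altogether. Ccl1, a T cell chemokine, was at 6.95 CPM treated and 152 CPM untreated, with 53.6% of the untreated UMIs in 1 cell. Igfbp4, a naive cell gene, was at 2.58 CPM treated and 30.8 CPM untreated, with 59.7% of the untreated UMIs in 1 cell.

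Other genes at this end are best known from myeloid, stromal or red cells. Il1b was at 8.74 CPM treated and 87.9 CPM untreated with 60.5% of the untreated UMIs in 1 cell, and 99.5% of the untreated Hbb-bs UMIs, a haemoglobin messenger, were in 1 cell. Spp1 was at 18.7 CPM treated and 132 CPM untreated, Tgfbi at 2.38 CPM treated and 28.3 CPM untreated, and H2-DMb1, of MHC class II loading, at 4.17 CPM treated and 43.7 CPM untreated. Macrophage markers moved with them: 9 of the 10 listed had UMIs in both libraries, C1qa being at 0 by the rule, with summed levels of 154 CPM treated and 276 CPM untreated. The 11 dendritic cell markers summed to 823 CPM treated, with Clec9a at 0, and 2946 CPM untreated. Their part in the low values of these genes was not tested.

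Genes that receptor signals switch on early were higher in treated cells as a group. Of 20 such genes measured, 13 were at least 1.5-fold higher and 1 was lower in treated Ifng-chemokine cells. Among all genes 30.6% were higher and 19.2% lower. The median log2 ratio of the list was 1.06, beside 0.10 for all genes. Beside Nr4a3, its relative Nr4a1 was at 293 CPM treated and 58.6 CPM untreated, and Nr4a2 at 1443 CPM treated and 308 CPM untreated. Fosb was at 443 CPM treated and 72.5 CPM untreated, while Fos (96.9 CPM treated, 94.9 CPM untreated) and Jun (162 CPM treated, 147 CPM untreated) hardly differed. Nfatc1, the inducible NFAT factor, was at 177 CPM treated and 65.1 CPM untreated, and Irf4, a factor that scales with receptor signal strength, at 50.7 CPM treated and 24.3 CPM untreated. Egr2 was near the floor, at 4.57 CPM treated (2.90 to 6.86) and 3.98 CPM untreated (1.72 to 7.83). Myc, which drives growth of stimulated T cells, was the exception at 7.95 CPM treated and 34.8 CPM untreated, 4.38-fold lower (2.93 to 6.63).

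Of 16 genes used as a readout of ERK activity, those measured did not as a group stand lower in treated Ifng-chemokine cells. Of 9 measured, 6 were at least 1.5-fold higher in treated cells and none lower by that much, with a median log2 ratio of 0.97. The cells were chosen by Ifng and a chemokine, genes that the same cascade feeds, and the action of the drugs on ERK was not tested. Spry2, a feedback inhibitor of the cascade, was at 105 CPM treated and 39.3 CPM untreated, 2.67-fold higher (2.10 to 3.42). Phlda1 was at 197 CPM treated and 59.6 CPM untreated, and Dusp5, a nuclear ERK phosphatase, at 343 CPM treated and 168 CPM untreated. Dusp6, the cytoplasmic ERK phosphatase, was at 33.8 CPM treated (28.9 to 39.2) and 35.8 CPM untreated (28.0 to 45.1), with overlapping intervals. Of 16 NF-kB subunits and feedback genes, 5 were higher and 2 lower, beside 30.6% higher and 19.2% lower among all genes, so the share that was higher is near that of all genes. The A20 gene Tnfaip3 was at 598 CPM treated and 179 CPM untreated, and Traf1 at 125 CPM treated and 217 CPM untreated.

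Regulators of Ifng leaned higher in treated cells. Of 15 genes of interferon gamma induction and its receptor, 8 were at least 1.5-fold higher and none lower by that much. Among all genes 30.6% were higher and 19.2% lower. The median log2 ratio of the list was 0.68. Tbx21, the T-bet factor that opens Ifng, was at 156 CPM treated and 72.0 CPM untreated, 2.16-fold higher (1.81 to 2.60), and its relative Eomes at 72.7 CPM treated and 43.7 CPM untreated. The interleukin 18 receptor gene Il18r1 was at 232 CPM treated and 108 CPM untreated, while Il12rb2, of the interleukin 12 receptor, was at 52.8 CPM treated (46.7 to 59.6) and 49.7 CPM untreated (40.4 to 60.4), and its direction turned when ratios were centred on the median of all genes. Stat4, which carries the interleukin 12 signal, was at 77.5 CPM treated and 112 CPM untreated.

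Of 10 genes that control decay or translation of cytokine messengers, 5 were higher and 1 was lower in treated cells. Among all genes 30.6% were higher and 19.2% lower. Zfp36l2 was at 871 CPM treated and 287 CPM untreated, 3.03-fold higher, and Zc3h12a, the Regnase-1 endonuclease, at 67.5 CPM treated and 27.8 CPM untreated. Rc3h1, which encodes Roquin-1, was at 66.2 CPM treated and 19.9 CPM untreated. Zfp36, encoding tristetraprolin, was at 139 CPM treated and 87.9 CPM untreated, and Zfp36l1, its relative, at 144 CPM treated and 98.9 CPM untreated; both directions turned when the rule was read as Ifng or Ccl3 or Ccl4. The member that was lower was Gapdh, a glycolytic enzyme that can also bind Ifng messenger, at 1790 CPM treated and 3968 CPM untreated.

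The remaining cytokines and chemokines split. Ccl5, a chemokine of effector cells, was at 4004 CPM treated (3949 to 4060) and 3114 CPM untreated (3038 to 3192), 1.29-fold higher, although thinning or cells of 5000 to 10000 UMIs turned that direction. Tnf was at 29.8 CPM treated (25.2 to 35.0) and 22.4 CPM untreated (16.3 to 29.9), a ratio of 1.33 whose interval of 0.949 to 1.90 includes 1, and its direction turned with the mean of per-cell CPM. Il2 was at 4.77 CPM treated and 29.8 CPM untreated, with 56.7% of the untreated UMIs in 1 cell. Csf2, encoding GM-CSF, was at 5.76 CPM treated and 12.4 CPM untreated, with 65.5% of the treated and 40.0% of the untreated UMIs in 1 cell each. Of 8 other effector cytokines measured, 3 were at least 1.5-fold higher and 4 lower in treated cells. Among all genes 30.6% were higher and 19.2% lower. Of 6 other chemokine ligands none was higher by 1.5-fold and 4 were lower, with a median log2 ratio of -2.55 that was 0.25 among cells with 2 or more Ifng UMIs.

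Of 12 cytotoxic genes measured, 2 were at least 1.5-fold higher and 4 lower in treated cells, beside 30.6% higher and 19.2% lower among all genes. Their median log2 ratio of -0.15 turned to 0.078 with the rule read as Ifng or Ccl3 or Ccl4 and to 0.13 without the granzyme and cell cycle limits. Gzmb was at 372 CPM (356 to 390) treated and 1426 CPM (1374 to 1479) untreated, 3.83-fold lower, with a UMI in 64.4% of treated and 77.7% of untreated cells. Fasl, the death receptor ligand, was at 110 CPM treated and 63.6 CPM untreated, 1.73-fold higher (1.43 to 2.12). Nkg7, a granule protein gene, was at 2712 CPM treated and 2980 CPM untreated, and Gzmk at 46.3 CPM treated and 47.2 CPM untreated. At 2000 UMIs per cell Prf1 was detected in 16.3% of treated and 50.8% of untreated Ifng-chemokine cells.

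Among 8 inhibitory receptor and exhaustion genes measured, Tox was at least 1.5-fold higher and Lag3 and Cd160 were lower by that much in treated cells. Among all genes 30.6% were higher and 19.2% lower. The median log2 ratio of the list was -0.32, and 0.14 when the rule was read as Ifng or Ccl3 or Ccl4. Tox, a factor of chronically stimulated CD8 cells, was at 278 CPM treated and 122 CPM untreated, 2.28-fold higher (1.99 to 2.62). Pdcd1, encoding PD-1, was at 335 CPM treated and 428 CPM untreated, and Havcr2, encoding TIM-3, at 84.2 CPM treated and 103 CPM untreated; both turned when the rule was read as Ifng or Ccl3 or Ccl4. Cd160 was at 124 CPM treated and 197 CPM untreated, and turned in cells of 5000 to 10000 UMIs. Of 14 costimulatory and activation receptors, 3 were higher and 4 lower, beside 30.6% higher and 19.2% lower among all genes, and their median log2 ratio of -0.27 was 0.11 without the granzyme and cell cycle limits. Tnfrsf9, encoding 4-1BB, was at 276 CPM treated and 541 CPM untreated, and Icos at 225 CPM treated and 94.9 CPM untreated.

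Genes of naive and memory cells, homing and cell fate followed. Their counts past 1.5-fold stand beside 30.6% higher and 19.2% lower among all genes. Of 11 naive and memory genes measured 2 were higher and 7 lower in treated cells, a median log2 ratio of -1.43 that was 0.26 when cells were thinned to 2000 UMIs and chosen again. Tcf7, the factor of naive and stem-like cells, was at 13.7 CPM treated and 45.2 CPM untreated. Of 14 effector and fate factors 7 were higher and 1, Id2, was lower, with Rora at 481 CPM treated and 129 CPM untreated. Of 12 chemokine receptor and residency genes 7 were higher and 3 lower. Rgs2, a brake on receptor signalling through G proteins, was at 527 CPM treated and 92.9 CPM untreated, and the integrin gene Itga4 at 312 CPM treated and 94.9 CPM untreated. Cxcr6, a receptor of tumour-resident T cells, was at 306 CPM treated and 585 CPM untreated.

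Type I interferon genes were lower in treated cells, and targets of interferon gamma were so in part. Among all genes 30.6% were at least 1.5-fold higher and 19.2% lower. Of 9 type I interferon genes measured, 8 were at least 1.5-fold lower and none higher, with a median log2 ratio of -1.89. Usp18, a feedback protease, was at 6.36 CPM treated and 46.7 CPM untreated, and Irf7 at 19.7 CPM treated and 78.5 CPM untreated. Of 16 interferon gamma and class I target genes, 8 were lower and 1 higher, with a median log2 ratio of -0.58: the immunoproteasome gene Psmb9 was at 185 CPM treated and 421 CPM untreated, while H2-K1, a class I heavy chain, was at 3483 CPM treated and 3457 CPM untreated. Nlrc5, the activator of class I genes, was the higher one at 93.8 CPM treated and 58.1 CPM untreated.

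Most glycolytic genes were lower in treated cells. Among all genes 30.6% were at least 1.5-fold higher and 19.2% lower. Of 14 glycolysis genes 10 were at least 1.5-fold lower and none higher, with a median log2 ratio of -1.32. Tpi1, triosephosphate isomerase, was at 128 CPM treated and 618 CPM untreated, 4.81-fold lower (4.37 to 5.30), and Ldha, lactate dehydrogenase, at 473 CPM treated and 1336 CPM untreated. Hk2, the first enzyme of the pathway, was at 38.9 CPM treated (33.7 to 44.8) and 29.8 CPM untreated (22.8 to 38.4). Of 13 heat shock and dissociation stress genes 7 were higher and none lower by 1.5-fold, a median log2 ratio of 0.74 that turned when the rule was read as Ifng or Ccl3 or Ccl4. Dnaja1, a co-chaperone, was at 1111 CPM treated and 310 CPM untreated. Among 11 cell death and p53 genes 5 were higher and 2 lower, the share that was lower being near the 19.2% of all genes. Cdkn1a, the p21 inhibitor, was at 152 CPM treated and 58.6 CPM untreated. Bcl2 was at 85.2 CPM treated and 178 CPM untreated, a log2 ratio of -1.07 that was -0.30 without the granzyme and cell cycle limits.

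**Figure D3:**
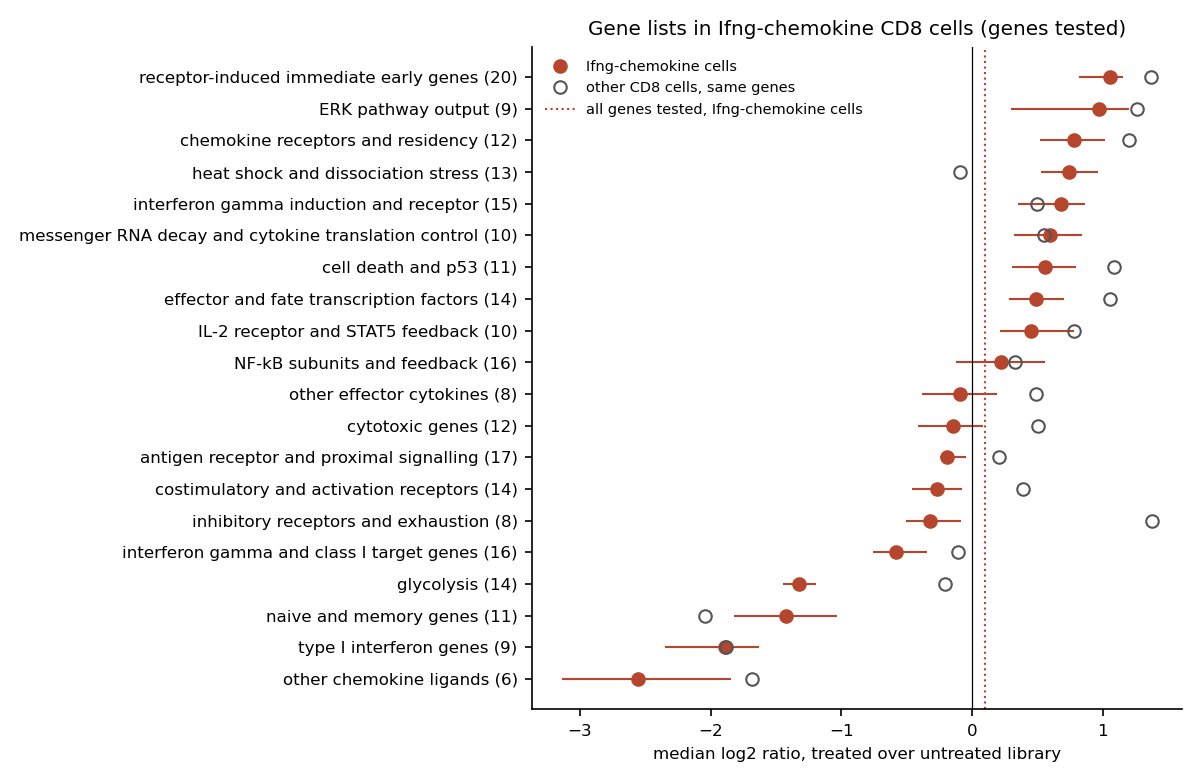
Median log2 ratio of treated over untreated library for 20 gene lists, with the number of genes measured in brackets. Filled points are Ifng-chemokine cells and open points the same genes in other CD8 cells; horizontal lines join the median lower and upper interval bounds of the genes, and the dotted line is the median of all genes at 0.10. Inhibitory receptors stand at -0.32 in Ifng-chemokine cells (0.14 when the rule is read as Ifng or Ccl3 or Ccl4) and 1.38 in other CD8 cells, and glycolysis at -1.32 and -0.21.

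Many of these differences between the libraries were shared by CD8 cells that did not meet the rule. In treated cells Nr4a3 was at 699 CPM with Ifng and a chemokine, 685 CPM with Ifng alone, 621 CPM with a chemokine alone and 550 CPM with none of the 3. In untreated cells it was at 59.6, 44.8, 40.8 and 34.1 CPM in the same order of classes. The effector genes behaved otherwise, with a gradient over classes that was steep in untreated cells. Prf1 was at 96.7, 89.4, 93.6 and 71.8 CPM over the treated classes, and at 778, 341, 121 and 73.2 CPM over the untreated classes. Lag3 was at 316, 282, 257 and 201 CPM over the treated classes, and at 524, 290, 104 and 59.9 CPM over the untreated classes. Klf2, a factor of recirculating cells, was at 46.7, 27.3, 42.3 and 92.3 CPM over the treated classes, and at 186, 426, 825 and 1128 CPM over the untreated classes. The untreated classes also differed in depth, with medians of 9476, 8692, 7507 and 5825 UMIs, against 6699, 6549, 6593.5 and 6313 UMIs for the treated classes.

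**Figure D4:**
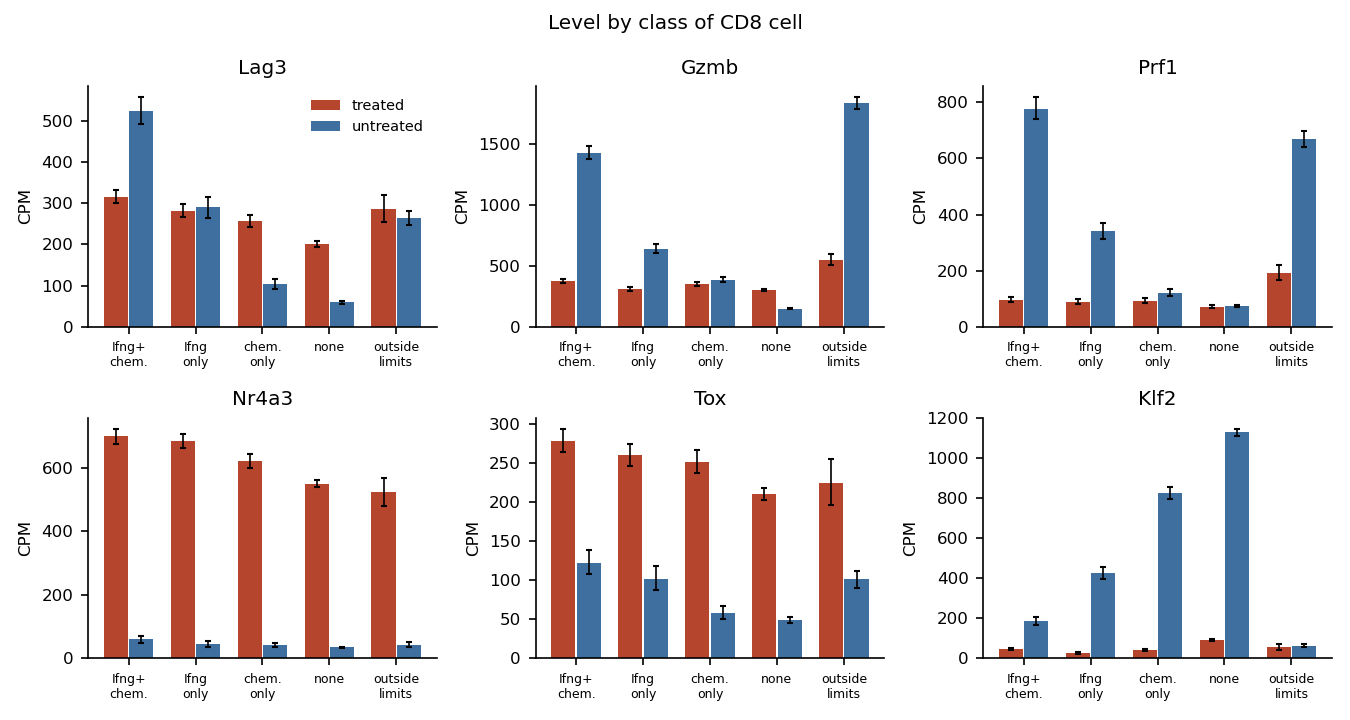
Level in CPM of 6 genes in CD8 cells with Ifng and a chemokine, with Ifng alone, with Ccl3 or Ccl4 alone, with none of the 3, and with Ifng and a chemokine but outside the granzyme or cell cycle limit. Red bars are treated, blue bars untreated, and whiskers are exact 95% Poisson intervals; Nr4a3 is higher in every treated class, whereas Prf1 spans 71.8 to 96.7 CPM over the first 4 treated classes and 73.2 to 778 CPM over the first 4 untreated ones.

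Set against other CD8 cells of their own library, the Ifng-chemokine cells stood out far more in the untreated library. This contrast is the one by which the cells were chosen, so it is a description. Leaving out the genes of the rule, 1.43% of 5370 genes were at least 1.5-fold higher and 1.38% at least 1.5-fold lower in treated Ifng-chemokine cells than in treated other CD8 cells. In the untreated library 20.6% of 4956 genes were higher and 7.57% lower. Of 4485 genes measured in both libraries, 43 were higher and 35 lower in both. In log2, ERK feedback genes were among those higher in both: Dusp6 by 1.32 treated and 1.18 untreated, Dusp4 by 0.97 treated and 1.36 untreated, and Spry2 by 0.83 treated and 1.80 untreated. Gadd45b, a stress-inducible signalling gene, was higher by 1.12 treated and 0.94 untreated, Prdm1, encoding Blimp-1, by 1.14 treated and 1.94 untreated, and Havcr2 by 1.00 treated and 2.52 untreated. Nrgn was higher by 1.02 treated and 2.61 untreated, Igfbp7 by 0.90 treated and 2.10 untreated, Plscr1 by 0.90 treated and 2.00 untreated, and the glucose transporter gene Slc2a3 by 0.95 treated and 1.73 untreated. H2-Aa, an MHC class II chain of antigen-presenting cells, was higher by 0.92 treated and 1.19 untreated, beside dendritic cell markers that summed to 823 CPM in treated Ifng-chemokine and 555 CPM in treated other CD8 cells, and to 2946 CPM and 1500 CPM in the same classes of the untreated library.

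The genes lowest in Ifng-chemokine cells of both libraries were those of naive and recirculating cells. The log2 difference from other CD8 cells was -2.79 treated and -2.57 untreated for S1pr1, the receptor for leaving lymphoid tissue, and -1.87 treated and -2.44 untreated for Tcf7. Lef1, the partner of Tcf7, stood at -2.23 treated and -2.32 untreated, Klf3 at -2.10 treated and -2.12 untreated, and Fam241a at -1.87 treated and -2.54 untreated. Glycolysis genes were at least 1.5-fold higher in the Ifng-chemokine cells for 1 of 14 genes in the treated and 14 of 14 in the untreated library, and inhibitory receptors for 1 of 8 treated and 7 of 8 untreated. Prf1 was higher by 0.28 treated and 2.91 untreated in log2, and Gzmb by 0.25 treated and 2.65 untreated. Of the 4485 genes measured in both libraries, 8 were higher by 1.5-fold in treated and lower in untreated Ifng-chemokine cells, and 4 the reverse. Few could be of either kind, since only 1.43% of genes were higher and 1.38% lower in the treated library. The untreated shares were 20.6% higher and 7.57% lower, so these counts are no result about opposite directions. Fos was at 0.80 treated and -1.23 untreated and Jun at 1.03 treated and -0.71 untreated. Hspa1a, the inducible HSP70 gene, stood at 2.33 treated and -0.48 untreated, and 5 of 13 heat shock and dissociation stress genes were higher in treated Ifng-chemokine cells while 4 of 12 were lower in untreated ones; whether handling of the cells has a part in this was not tested.

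**Figure D5:**
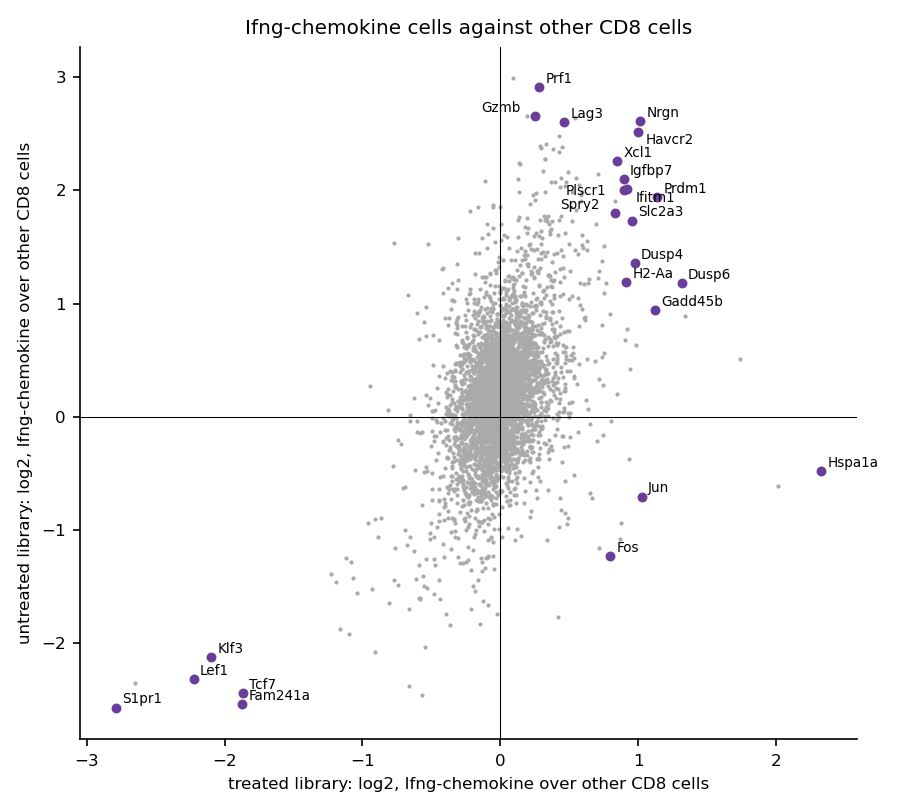
Log2 ratio of Ifng-chemokine over other CD8 cells in the treated library (horizontal) and in the untreated library (vertical), 1 grey dot per gene measured in both, without the genes of the rule except Lag3 and Xcl1; named genes are purple. The cloud is narrow along the treated and wide along the untreated axis, with naive genes such as S1pr1 (-2.79 treated, -2.57 untreated) low in both and Hspa1a (2.33 treated, -0.48 untreated) on opposite sides.

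Marker lists of other lymphocytes were read in the same cells. The 11 markers of natural killer and innate-like T cells summed to 2017 CPM in treated and 2120 CPM in untreated Ifng-chemokine cells, mostly from Klrd1, which effector CD8 cells also express, and Ncr1, a defining natural killer receptor, was at 0 in both. The gamma delta list summed to 51.8 CPM treated and 49.7 CPM untreated. The B cell list summed to 128 CPM treated and 126 CPM untreated, with Ebf1 at 0 in untreated cells, and the 4 markers of regulatory and CD4 cells other than Cd4 and Foxp3 were led by Ctla4 at 325 CPM treated and 242 CPM untreated. Neutrophil markers summed to 5.36 CPM treated and 1.49 CPM untreated, melanoma and stromal markers to 3.38 CPM treated and 4.97 CPM untreated with the melanocyte gene Pmel at 0 in both, and red cell markers to 0.397 CPM treated and 131 CPM untreated.

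Receptor beta chain segments were sparse, as 3' reads reach them rarely. A UMI of any of the 9 Trbv segments measured in both libraries was present in 46 treated (6.74%) and 21 untreated (11.7%) Ifng-chemokine cells. Among cells with UMIs of 1 segment, Trbv2 accounted for 22 of 46 treated (47.8%, 32.9 to 63.1%) and 4 of 19 untreated cells (21.1%, 6.05 to 45.6%). Trbv3 accounted for 0 of 46 treated (0 to 7.71%) and 7 of 19 untreated cells (36.8%, 16.3 to 61.6%). In other CD8 cells Trbv3 was the segment of 0 of 201 treated (0 to 1.82%) and 15 of 98 untreated cells (15.3%, 8.83 to 24.0%). Trbv13-1, Trbv15 and Trbv19 were also at 0 in both treated classes, and accounted for 8.16%, 7.14% and 6.12% of untreated other CD8 cells. In other CD8 cells Trbv2 accounted for 32.8% treated and 13.3% untreated, and Trbv12-2 for 36.3% treated and 35.7% untreated. With these numbers no segment could be told apart between Ifng-chemokine and other CD8 cells of a library beyond the counting intervals.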

How the data were processed

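Single-cell RNA was measured in 1 treated and 1 untreated library made with a Chromium 3' v3 kit, per the labels. The submitters' processing notes list Cell Ranger and Seurat without versions, and build GRCh38 although the symbols are mouse, so no coordinates come from the files. Values were deposited for 15121 genes in 17390 cells as natural logs, ln(1 + UMIs per 10000 UMIs of the cell). Back-transformed values summed to 10000 in every cell, and 38204229 of 38204229 nonzero values were whole UMIs within 0.01 after division by each cell's smallest value. These UMIs were used throughout. The cell-name suffix gave the library, and both cell numbers matched the labels.

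Depth was 58318786 UMIs treated and 95349992 untreated. UMIs were summed over the chosen cells of a library and given as CPM. Intervals are exact at the 95% level: Poisson for levels, conditional binomial for ratios, Clopper-Pearson for shares. UMI intervals and floors (3 counts) cover counting error only. With 1 library per group there is no test. Ratios used genes with UMIs in both whole libraries (13998; 644 genes had none in the treated and 492 none in the untreated library) and at least 20 CPM and 50 UMIs in the Ifng-chemokine cells of 1 library. No cell filter was added to the authors' cells, and 1.5-fold is a chosen threshold. Thinning drew 2000 UMIs per cell and left out 566 treated and 352 untreated shallower cells. Scrublet's automatic threshold marked 0 treated and 4 untreated cells and was taken as not working, so doublets were kept and the highest 5% of scores removed as an alternative.

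The cells, the 20 gene lists and 9 marker lists were chosen with earlier results of these data known, and a list near the background share is no result about the list. The text names the genes of the rule, the 12 highest and 12 lowest ratios by the interval bound nearest 1, the 12 highest and 6 lowest of Ifng-chemokine over other CD8 cells, the 2 highest and 2 lowest of each list, and a fixed set of further genes. Not all genes that the rule names are described. Named beyond it, after their values were seen, were Dusp5, Fos, Fosb, H2-K1, Hspa1a, Icos, Irf4, Irf7, Jun, Klf2, Ldha, Nfatc1, Nfkbid, Nkg7 and Nr4a2. The ratio step was checked on simulated counts. Alternatives covered the reading of the rule and its limits, depth, doublets, mitochondrial share, scaling, expression minimum and denominator. Versions were scipy 1.17.1, numpy 2.4.6, matplotlib 3.10.9, scanpy 1.11.5 and pandas 2.3.3, under Python 3.11.15.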

Additional observations from a re-analysis of the deposited data

Results flagged for a closer look

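For 5 genes the difference between the libraries ran one way in Ifng-chemokine cells and the opposite way in other CD8 cells, past 1.5-fold in both by the rule as given; with 1 library per group the difference between these differences was not tested. Values are log2 ratios of the treated over the untreated library. Lag3, the inhibitory receptor, stood at -0.73 in Ifng-chemokine cells and 1.41 in other CD8 cells. Tnfrsf9, the 4-1BB costimulatory receptor, stood at -0.97 in Ifng-chemokine cells and 1.00 in other CD8 cells. Cxcr6, the receptor of tumour-resident cells, stood at -0.94 in Ifng-chemokine cells and 1.05 in other CD8 cells. Id2, a factor of effector cells, stood at -0.63 in Ifng-chemokine cells and 0.72 in other CD8 cells. Nrgn, a calmodulin-binding protein gene, stood at -0.70 in Ifng-chemokine cells and 0.89 in other CD8 cells. When the rule was read as Ifng or Ccl3 or Ccl4, none of the 5 stayed past 1.5-fold in the cells chosen: Lag3 turned to 0.086, and Tnfrsf9 stood at -0.20, Cxcr6 at -0.25, Id2 at -0.10 and Nrgn at -0.18. Nrgn turned to 0.032 among cells with no granzyme or cell cycle UMI, and without those limits Lag3 stood at -0.21, Id2 at -0.50 and Nrgn at -0.48, also short of 1.5-fold. In each case the untreated Ifng-chemokine cells were the highest of the 4 groups and the untreated other CD8 cells the lowest; Klf2 stood at 69.1 CPM in treated and 1021 CPM in untreated other CD8 cells, and its part in these values was not tested.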

How the results depend on the processing

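Shares, ratios and lists were recomputed with 1 choice changed at a time; cells of 5000 to 10000 UMIs, dropping the granzyme and cell cycle limits, and leaving out each gene's highest cell were added after seeing the data. The share of CD8 cells was the higher in the treated library under each: 6.75% treated and 2.78% untreated after thinning, 9.23% treated and 3.30% untreated with at least 2 Ifng UMIs, 44.7% treated and 20.5% untreated with Ifng or Ccl3 or Ccl4, 8.50% treated and 1.66% untreated (ratio 5.11) with no granzyme or cell cycle UMI, 16.8% treated and 8.84% untreated (ratio 1.90) with no limit on them, 13.3% treated and 3.74% untreated without cells holding another type's marker, 8.44% treated and 1.92% untreated of all cells, and 15.5% treated and 4.07% untreated at 5000 to 10000 UMIs. Genes 1.5-fold higher and lower in treated cells numbered 350 and 169 after thinning, 471 and 343 from 100 CPM, 3123 and 2208 with no CPM minimum, and 159 and 100 as differences of mean deposited values; 635 were lower with no granzyme or cell cycle UMI and 694 at 5000 to 10000 UMIs, against 1056. Genes higher than in other CD8 cells in both libraries, 43 in the main count, numbered 67, 24, 9, 321, 5 and 23 after thinning, without marker-holding cells, from 100 CPM, with no CPM minimum, on deposited values and at 5000 to 10000 UMIs. At 2000 UMIs per cell Lag3 was seen in 43.9% of treated and 52.5% of untreated, Xcl1 in 3.26% of treated and 11.7% of untreated, and Tnf in 6.37% of treated and 5.03% of untreated cells. Signs that turned among lists and named genes past 1.5-fold, in log2, were naive genes at 0.26 and Serpinb9 at -0.11 after thinning; other chemokine ligands at 0.25 with 2 Ifng UMIs and 0.051 with no granzyme or cell cycle UMI, as did Igfbp7 at 0.32 and Nrgn at 0.032; heat shock genes at -0.066, Lag3 at 0.086, Satb1 at -0.060 and Zfp36 at -0.048 with Ifng or Ccl3 or Ccl4; Cd160 at 0.27 and Socs2 at -0.035 at 5000 to 10000 UMIs; and Isg15 at 0.029 with no limit. The medians of 5 lists nearer 0 also turned: inhibitory receptors (-0.32) up to 0.14, cytotoxic genes (-0.15) up to 0.13, antigen receptor signalling (-0.19) up to 0.083, costimulatory receptors (-0.27) up to 0.11, and other effector cytokines (-0.088), which ranged from -0.59 to 0.58. The cause of these changes was not tested. Thinning and higher minimums leave fewer genes to count, although the 43 genes higher than in other CD8 cells became 67 after thinning. Of 20 list medians 12 kept their sign in all settings, each median being taken over the members that passed the expression minimum there. Of 90 named genes past 1.5-fold, 81 kept their sign in the settings in which they could be judged. A gene was judged only where it passed the expression minimum, so not every gene was judged in every setting. From 100 CPM, for example, 68 of all 116 named genes were judged. No paired analysis was possible because each group has 1 library. Depth limits genes of few UMIs and Trbv segments.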
